A study of Mus musculus with 7 samples.

Results

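Liver was compared with 6 other tissues of the mouse: kidney, visceral adipose tissue (VAT), cortex, whose neuronal genes mark it as brain, subcutaneous adipose tissue (SCAT), interscapular brown adipose tissue (BAT) and skeletal muscle. All 7 libraries came from wild-type animals labelled C57BL/6 (C57BL/6N in the study's methods), aged 36 weeks, that were kept on the diet labelled NCD, and the labels name no transgene or treatment. Each tissue was represented by 1 library of total RNA from which ribosomal RNA had been removed, so 1 of the 7 samples is described here, no replicate error can be given and no test was made. Whether the tissues came from the same animal or from pooled animals was not given in the sources used here. Expression is given as FPKM, the number of fragments scaled to transcript length and library size, so that levels can be compared between genes of different length. A value of 0 means only that the table listed the gene at 0.

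The members were chosen by a comparison of liver with the highest of the other 6 tissues. Names of 5 lncRNA biotypes of the GENCODE annotation were set aside, which leaves in names annotated as processed transcripts or as TEC, a class of transcripts awaiting experimental proof, some of which may be lncRNAs. Of the 44193 remaining names with a value, 4050 had no biotype, 21341 were protein-coding, and 14928 of those reached 1 FPKM in at least 1 tissue. A protein-coding gene was called liver-enriched when it had at least 1 FPKM in liver and when log2(FPKM + 0.1) in liver was at least 2 above that in the highest other tissue, that is, about 4-fold. This difference is called the log2 ratio below, and the added 0.1 understates it for low values. Of the 14905 genes with a liver value, 506 (3.39%) were liver-enriched, and 2315 (15.5%) were simply highest in liver. In the opposite direction, 8088 genes had at least 1 FPKM in all 6 other tissues, and 84 of them (1.04%) lay at least 4-fold below the lowest of these tissues in liver.

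The liver parenchyma is made largely of hepatocytes. These cells secrete most proteins of the blood plasma, assemble lipoproteins, convert ammonia to urea, make bile acids, store and release glucose, and oxidise drugs and other foreign compounds. Their gene expression is driven by a set of hepatocyte nuclear factors that bind the promoters of the same secreted and metabolic genes. Endothelial cells of the sinusoids, Kupffer cells (resident macrophages) and stellate cells, which store vitamin A, contribute further transcripts to RNA from whole liver. In such bulk RNA, the number of cells of a type cannot be told apart from the amount of RNA in each cell.

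The liver label was checked on 3 hepatocyte genes. Apoa1, the main protein of high-density lipoprotein, had 2521 FPKM in liver, 17.7 in VAT, 0.358 in kidney, 1.008 in muscle, 0.126 in BAT, 0.285 in SCAT and 0.152 in cortex. Ttr, a carrier of thyroid hormone and retinol, had 3530.1 FPKM in liver, 30.02 in VAT, 46.3 in kidney, 0.593 in muscle, 0.130 in BAT, 0.438 in SCAT and 195 in cortex. The ethanol-inducible cytochrome P450 Cyp2e1 had 4606 FPKM in liver, 295 in VAT, 331 in kidney, 9.96 in muscle, 11.5 in BAT, 68.2 in SCAT and 0.553 in cortex. Thus all 3 markers were highest in liver and liver-enriched, with log2 ratios of 7.15, 4.18 and 3.80, but they differed in the second tissue, which was VAT for Apoa1, cortex for Ttr and kidney for Cyp2e1. Albumin (Alb) could not be used for this check, because the table gave it no liver value.

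The liver-enriched genes had a median of 61.5 FPKM in liver and a median log2 ratio of 3.86, whereas the median log2 ratio over all 14905 genes was -1.32. Of the 506 genes, 34 reached 1000 FPKM in liver, 202 reached 100 FPKM, and 410 reached 10 FPKM. In 159 of them no other tissue reached 1 FPKM. The log2 ratio was at least 4 (16-fold) in 244 genes, at least 6 in 133 genes and at least 7 in 58 genes. Counting each locus once, liver-enriched genes held 44.1% of the summed FPKM of protein-coding genes in liver. By the same rule, 505 genes enriched in muscle held 38.0% of the muscle sum, 371 genes enriched in kidney held 23.4% of the kidney sum, and 1225 genes enriched in cortex held 17.4% of the cortex sum. Liver thus had fewer enriched genes than cortex, and these held a larger share of its sum. The 10 highest loci held 18.5% of the liver sum and the 100 highest held 43.2%. These liver shares cover only the loci used. Genes with no liver value, such as Alb, Apob and Apoe, enter no part of them, nor does the locus of Trf (5511 FPKM in liver), which was left out. The sums of other tissues kept such genes where they had a value, as with Ckm (8592 FPKM in muscle).

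**Figure D1:**
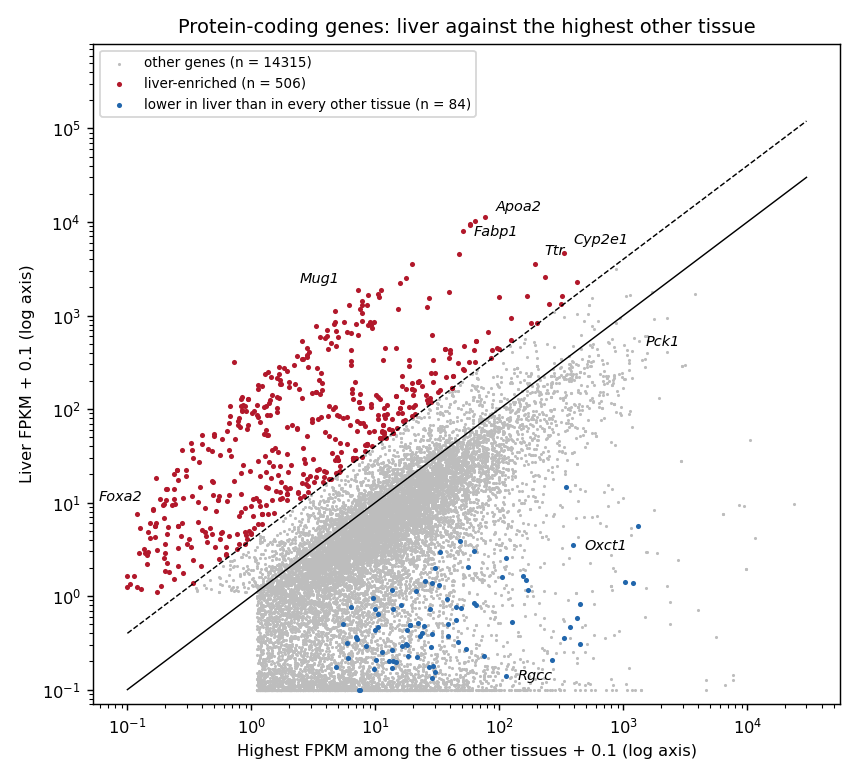
Liver FPKM (vertical axis) against the highest FPKM among the 6 other tissues (horizontal axis) for each protein-coding gene, both plus 0.1 on log axes, with the line of equality (solid) and the 4-fold line (dashed). The 506 liver-enriched genes (red) lie above the dashed line, and the 84 genes lower in liver than in each other tissue (blue) lie below the line of equality.

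Not every name stood for a separate measurement. The table gives no strand, so the strand of each locus was inferred from the order of the loci. Of the 506 liver-enriched genes, 50 shared their locus with another name, 131 were read from a locus assigned to the strand opposite to the annotation, and 46 had a higher liver-enriched locus on the other strand within the same bounds. None of these limits applied to 294 genes. For a gene on the opposite strand, its own transcript and an antisense one cannot be told apart. Of the genes named with values below, this holds for the regulators Foxa2, Gata4, Hnf4a, Onecut1, Onecut2 and Prox1, for the secreted proteins Apcs, C1qa, C1rl, Cfd, Colec10, F8, Fga, Fgf21, Hc, Hrg, Saa1, Serpina1a, Serpina1e, Serpina7, Mup11, Mup17, Mup20 and Mup21, for the enzymes Baat, Cyp2c50, Cyp2c54, Cyp3a11, Cyp7a1, G6pc, Lrat and Ugt2b36, and for Chst11, Cyp2d37-ps, Hbb-bs, Higd1b, Lgr5, Mir122, Slc25a15, Stat2 and Tspan6. Higher loci on the other strand shared the bounds of Abcg8, Acaa1a, Apoa4, Apoc3, Apof, C8b, Ccdc152, Dlec1, F2rl2, Ghr, Gm10801, Gm45724, Lrat, Usp21 and Zfp646. Such bounds can span far more than the genes named, so shared bounds do not mean that the genes overlap. Within the same bounds, Apoa2 is annotated from 171225054 to 171226379 and Usp21 from 171281945 to 171287991. Stat2, for example, had 61.3 FPKM in liver from a locus whose bounds also held Apof (53.0), and Ccdc152 (1317) overlapped the selenium carrier Selenop (1607). Conversely, 23 expressed protein-coding genes had no liver value, because the table gave 0 with the status LOWDATA. These included Alb, Apob, Apoe, Apoc1, Apoc2, Apoc4, Serpina1b, Serpina1c and Serpina1d, so several of the best known hepatocyte genes are missing from the 506.

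Behind liver, the tissue in second place was most often VAT, in 231 of the 506 liver-enriched genes (45.7%), against 5.91% of the 1809 genes that were highest in liver without reaching the rule. Kidney came second for 129 (25.5% against 36.0%), and BAT, cortex, muscle and SCAT for 44, 37, 33 and 30. In 2 genes all other tissues were listed at 0. Among the 202 liver-enriched genes with at least 100 FPKM in liver, the median level was 1.10% of liver in VAT (200 genes with a value), 0.413% in kidney, 0.106% in muscle, 0.0880% in SCAT, 0.0830% in BAT and 0.0461% in cortex. The percentile below which 10% of the genes lay was 0.554% of liver in VAT and 0.0152% in kidney. For 54 genes, kidney, cortex, SCAT, BAT and muscle all lay below 0.1% of liver, and over these genes VAT ran from 0.378% of liver for Mug1 to 2.29% for Tat, with a median of 0.669%. In 45 of them it lay between 0.3% and 1%. The VAT level of most of these genes was thus a similar small share of their liver level, and VAT set their log2 ratio. Without VAT, the median log2 ratio of the 506 genes was 4.15, the median over the 25 genes with the largest log2 ratios was 10.51 in place of 7.45, and 39 genes reached 10. VAT was also the highest tissue for all 7 measured markers of epididymis and testis, among them Crisp1 (1386 FPKM in VAT, 0 in liver). The origin of the liver transcripts in the VAT library was not tested.

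**Figure D2:**
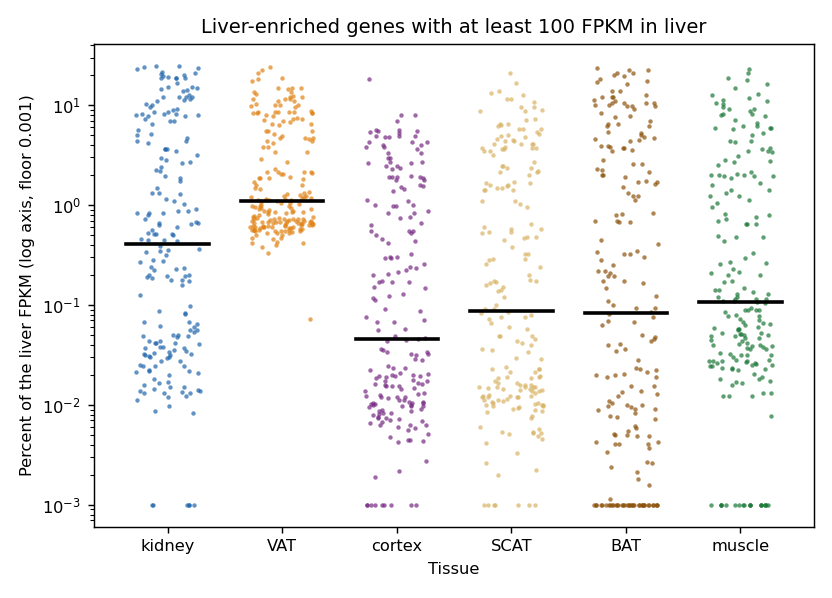
Level in each other tissue as a percent of the liver FPKM (vertical log axis, values under 0.001 drawn at 0.001) for liver-enriched genes with at least 100 FPKM in liver; each point is a gene and the bar is the median. VAT has a dense band just below 1% and almost no genes beneath it, whereas the other 5 tissues reach far lower.

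Among the regulators of hepatocyte genes, 11 of 24 measured transcription factors and nuclear receptors were liver-enriched and 17 were highest in liver, with a median log2 ratio of 1.05. Their levels were modest next to those of the secreted proteins, with a median of 11.4 FPKM in liver. The forkhead factor Foxa2 had 8.23 FPKM in liver, 0.0616 in VAT, 0.00331 in kidney, 0.0149 in muscle, 0 in BAT, 0.00625 in SCAT and 0 in cortex. Its relative Foxa3 had 2.68 FPKM in liver and a log2 ratio of 4.26. The cut-homeodomain factors Onecut1 and Onecut2 had 9.59 and 11.01 FPKM in liver, with log2 ratios of 5.62 and 5.30. These 4 factors were below 0.2 FPKM in every other tissue.

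Other regulators were shared with kidney. Hnf4a, a nuclear receptor required for hepatocyte identity, had 207 FPKM in liver, 2.42 in VAT, 159 in kidney, 0.138 in muscle, 0 in BAT, 0.0195 in SCAT and 0.0360 in cortex. Nr1h4, the bile acid receptor FXR, had 53.0 FPKM in liver and 39.3 in kidney, and less than 1 in the remaining 5 tissues. Neither reached the 4-fold rule. The xenobiotic receptors Nr1i2 (PXR) and Nr1i3 (CAR), in contrast, were liver-enriched, with 11.9 and 136 FPKM in liver and log2 ratios of 4.20 and 3.68. So were Creb3l3, a membrane-bound factor of the fasting and lipid response (129 FPKM, log2 ratio 7.10), Prox1 (47.9 FPKM, 3.34), Nr5a2 (11.8 FPKM, 4.45), Nr0b2 (4.75 FPKM, 5.06) and Gata4 (3.53 FPKM, 4.19). Cebpa, which is intronless, had a low value of 1.53 FPKM in liver and 1.62 in BAT.

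Promoters of the liver-enriched genes were searched for short core letters that these factors are known to bind. RefSeq promoters (GRCm38.p6), from 250 bases before to 50 bases after a transcription start, were found for 388 of the 506 genes, as 479 starts. The letters CAAAGTCCA of HNF4, on either strand, were in 9 of the 479 promoters (1.88%) against 0.502% of the 14738 promoters of all protein-coding genes tested. On either strand, TGTTTAC of the forkhead factors was in 28 (5.85%) against 2.70%, and TTGCNNAA of the C/EBP family in 85 (17.7%) against 9.01%. TATAAA on the forward strand, beginning 35 to 20 bases before the start, was in 25 (5.22%) against 1.49%. The share of all 32851 promoters was 0.475% for the HNF4 letters, 3.65% for the forkhead letters, 10.8% for the C/EBP letters and 1.84% for the placed TATAAA. Among the promoters of genes enriched in each other tissue, the share with the HNF4 letters ran from 0 of 107 in BAT to 1.45% of 275 in SCAT and 1.55% of 323 in kidney. The share with the C/EBP letters ran from 7.48% in BAT to 14.9% in SCAT, that with the forkhead letters from 1.99% in VAT to 4.02% in kidney, and that with the placed TATAAA from 1.48% in cortex to 4.33% in kidney and 4.64% in VAT. Genes with several starts count more than once, some neighbours share ancestry, and a match is not evidence of binding.

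The promoters of 3 genes are printed because together they show each of these letters in genes with high liver levels. Capitals mark the matches, positions are counted from the transcription start, and each run reads 5′ to 3′ on the strand of the gene. Cyp3a11 (a drug-oxidising P450, chr5:145879805-145880104, minus strand) held the HNF4 letters at -109 and the forkhead letters at -198. Apoh (apolipoprotein H, chr11:108395047-108395346, plus strand) held the forkhead letters at -71. Fabp1 (liver fatty acid binding protein, chr6:71199629-71199928, plus strand) held the C/EBP letters at -174 and TATAAA at -30.
Cyp3a11: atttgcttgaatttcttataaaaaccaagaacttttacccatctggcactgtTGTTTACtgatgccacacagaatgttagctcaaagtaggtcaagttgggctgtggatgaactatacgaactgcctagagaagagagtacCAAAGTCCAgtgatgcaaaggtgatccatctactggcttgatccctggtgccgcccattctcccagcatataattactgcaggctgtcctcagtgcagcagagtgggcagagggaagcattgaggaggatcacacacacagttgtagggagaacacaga
Apoh: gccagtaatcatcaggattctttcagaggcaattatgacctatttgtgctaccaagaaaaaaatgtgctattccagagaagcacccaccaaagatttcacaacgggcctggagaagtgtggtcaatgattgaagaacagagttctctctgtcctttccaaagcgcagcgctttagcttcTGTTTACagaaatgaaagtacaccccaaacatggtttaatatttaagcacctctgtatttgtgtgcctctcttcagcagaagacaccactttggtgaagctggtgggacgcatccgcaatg
Fabp1: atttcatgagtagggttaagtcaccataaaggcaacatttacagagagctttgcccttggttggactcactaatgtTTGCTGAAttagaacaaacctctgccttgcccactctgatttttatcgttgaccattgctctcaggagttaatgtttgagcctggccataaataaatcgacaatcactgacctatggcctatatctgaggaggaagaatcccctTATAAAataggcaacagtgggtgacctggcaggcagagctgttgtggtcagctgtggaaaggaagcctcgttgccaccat

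Several of the higher members shared a pattern across tissues. Gc, the vitamin D binding protein, had 4577 FPKM in liver, 46.7 in VAT, 12.7 in kidney, 1.45 in muscle, 0.377 in BAT, 0.454 in SCAT and 0.459 in cortex. Slco1b2, an organic anion transporter for bile acids and bilirubin, had 849 FPKM in liver, 5.48 in VAT, 0.451 in kidney, 0.219 in muscle, 0.0881 in BAT, 0.0440 in SCAT and 0.274 in cortex. Cyp3a11 had 793 FPKM in liver, 8.63 in VAT, 0.0653 in kidney, 0.3003 in muscle, 0 in BAT, 0 in SCAT and 0.129 in cortex. In all 3 genes VAT was the next highest tissue, between 0.645% and 1.09% of the liver level. Apoh had 1563 FPKM in liver and 10.7 in VAT, and Fga, the fibrinogen alpha chain, had 684 FPKM in liver and 4.73 in VAT.

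The highest liver-enriched genes encoded plasma apolipoproteins, lipid carriers and major urinary proteins, apart from Usp21. Apoa2, an apolipoprotein of high-density lipoprotein (chromosome 1, 171225054 to 171226379), had 11343 FPKM in liver, 76.2 in VAT, 7.37 in kidney, 1.51 in muscle, 2.61 in BAT, 1.05 in SCAT and 1.35 in cortex. Fabp1, which carries fatty acids within the hepatocyte (chromosome 6, 71199827 to 71205023), had 8021 FPKM in liver, 50.6 in VAT, 10.2 in kidney, 1.84 in muscle, 0.325 in BAT, 1.502 in SCAT and 0.152 in cortex. Mup3, a major urinary protein (chromosome 4, 62083476 to 62087342), had 9425 FPKM in liver, 57.5 in VAT, 1.86 in kidney, 2.36 in muscle, 1.04 in BAT, 1.43 in SCAT and 0.988 in cortex. For each of these, VAT came next, at less than 1% of the liver value, and the remaining 5 tissues lay lower still. The 15 genes with the highest level in liver also held Mup11 (9301 FPKM), Cyp2e1, Gc, Mup20 (3592), Ttr, Cyp4a14 (2589), Apoa1, the microsomal glutathione transferase Mgst1 (2303), the heme scavenger Hpx (2237), the mineral carrier Ahsg (1897) and the protease inhibitor Mug1 (1877). Mgst1 was the least restricted of them, with 421 FPKM in BAT and 275 in VAT. Usp21, a ubiquitin protease, was the second highest of the 15, at 10273 FPKM. Its locus shares its bounds with Apoa2 on the other strand, and its level cannot be told apart from signal opposite Apoa2.

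**Figure D3:**
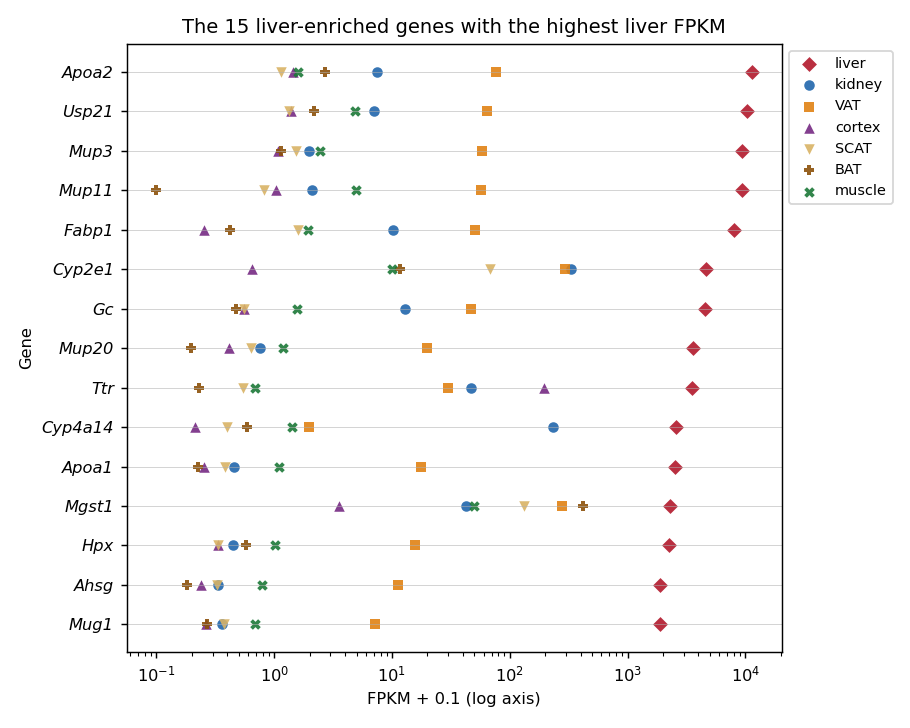
FPKM plus 0.1 (horizontal log axis) in each of the 7 libraries for the 15 liver-enriched genes with the highest liver level; each symbol is 1 library. Liver (red diamonds) lies to the right in every gene, VAT (orange squares) follows at a similar distance in most, and Cyp2e1, Ttr, Cyp4a14 and Mgst1 have a closer second tissue.

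Enzymes of methionine metabolism and secreted inhibitors stood beside these carriers among the largest log2 ratios. Mug1, a murinoglobulin that traps proteases, had 1877 FPKM in liver, 7.09 in VAT, 0.259 in kidney, 0.589 in muscle, 0.170 in BAT, 0.274 in SCAT and 0.162 in cortex, a log2 ratio of 8.03. Bhmt, which remethylates homocysteine with betaine, had 1115 FPKM in liver, 4.66 in VAT, 0.339 in kidney, 0.407 in muscle, 0.0127 in BAT, 0.109 in SCAT and 0.0781 in cortex (7.87). Mat1a, the hepatic enzyme that makes S-adenosylmethionine, had 764 FPKM in liver, 3.21 in VAT, 0.116 in kidney, 0.204 in muscle, 0.0314 in BAT, 0.0732 in SCAT and 0.0389 in cortex (7.85). All 3 were below 1 FPKM in every tissue but liver and VAT. The bile acid sulfotransferase Sult2a8 (7.68), the tryptophan dioxygenase Tdo2 (7.56), histidine-rich glycoprotein Hrg (7.52), antithrombin Serpinc1 (7.49), fibrinogen beta chain Fgb (7.45), the carboxylesterase Ces3a (7.42), Ahsg (7.40), Apoa4 (7.40), Ambp (7.39), Itih4 (7.35), complement C8b (7.33), coagulation factor F12 (7.32) and Cyp3a25 (7.32) followed. The remaining names among the 25 largest were Serpina1e (7.74), Serpina1a (7.35), Mup15 (7.52), Cyp2c54 (7.51), Mup20 (7.501), Mup3 (7.35), Mup11 (7.34) and Usp21, which have near-identical relatives or shared loci, and Gm10801. Gm10801 had the largest log2 ratio of all (8.80), but it had no value in VAT, and its neighbour Gm10800 lay on the other strand within the same bounds.

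Secreted carriers of the plasma were nearly all liver-enriched. Of 23 measured members, 22 were liver-enriched, with a median log2 ratio of 6.45 and a median of 618 FPKM in liver. The exception was A1bg, at 0.157 FPKM in liver and 1.09 in muscle. Haptoglobin (Hp), which binds free hemoglobin, passed by little (log2 ratio 2.10), with 1338 FPKM in liver, 108 in VAT, 1.11 in kidney, 10.9 in muscle, 313 in BAT, 46.1 in SCAT and 0.149 in cortex. Orm1, an acute phase glycoprotein, was likewise shared with adipose tissue, with 349 FPKM in liver, 84.8 in VAT and 70.0 in BAT. Rbp4, the plasma carrier of retinol, had 618 FPKM in liver, 28.3 in VAT and 10.5 in BAT, while the kininogen Kng1 had 1066 in liver and 7.67 in VAT.

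Of 21 measured genes of apolipoproteins and lipoprotein assembly, 17 were liver-enriched (median log2 ratio 6.07). Apoa5, which promotes the breakdown of plasma triglyceride, had 1182 FPKM in liver and 7.35 in VAT, and Apoc3, which opposes it, had 844 and 8.999. The transfer protein Mttp, which loads lipid onto apolipoprotein B, was found in more tissues, with 127 FPKM in liver, 2.30 in VAT, 10.8 in kidney, 1.21 in muscle, 4.40 in BAT, 0.609 in SCAT and 1.98 in cortex. Hepatic lipase Lipc (110.2 FPKM in liver, log2 ratio 6.998) and the cholesterol acyltransferase Lcat (163, 6.07) were restricted more strongly. Pltp and Angptl8 were among those that did not pass, with 26.6 FPKM of Pltp, a phospholipid transfer protein, in liver and 51.9 in VAT from a locus shared with Neurl2 and Spata25, and 5.31 of Angptl8, which regulates lipoprotein lipase, in liver and 6.65 in BAT.

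Coagulation was also liver-centred, with 17 of 21 genes liver-enriched and all 21 highest in liver (median log2 ratio 6.44). Fibrinogen gamma chain Fgg had 1283 FPKM in liver, 8.45 in VAT, 2.46 in kidney, 0.159 in muscle, 0.0203 in BAT, 0.113 in SCAT and 0.187 in cortex. Prothrombin (F2) had 579.8 FPKM in liver, 3.85 in VAT, 0.126 in kidney, 0.396 in muscle, 0.0420 in BAT, 0.0919 in SCAT and 0.0712 in cortex. Plasminogen (Plg) had 409.9 FPKM in liver and 2.84 in VAT. For all 3 genes VAT again came second, and cortex, SCAT, BAT and muscle lay below 0.5 FPKM. The exceptions were F8, F13b, Pros1 and Serpinf2. F8, a factor made largely by endothelial cells, had 18.5 FPKM in liver, 2.37 in VAT, 4.91 in kidney, 1.19 in muscle, 1.66 in BAT, 12.7 in SCAT and 1.22 in cortex. F13b had 95.9 FPKM in liver and 36.4 in kidney, and Serpinf2 had 196 and 49.5, which left its log2 ratio just short at 1.98.

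Complement was less uniform. Of 23 measured genes, 17 were liver-enriched (median log2 ratio 3.17). C3, the central component, had 1593 FPKM in liver, 65.9 in VAT, 4.29 in kidney, 29.6 in muscle, 80.9 in BAT, 99.4 in SCAT and 0.329 in cortex. C9, of the membrane attack complex, had 172 FPKM in liver and 1.92 in VAT, and the lectin Mbl2 had 133 and 1.49. C5 is named Hc in mouse and had 513 FPKM in liver against 4.32 in VAT. Subunits of C1q, which macrophages make, were not liver-enriched: C1qa had 12.99 FPKM in liver, 15.5 in VAT and 16.1 in SCAT. Cfd (adipsin), an adipocyte product, stood at the other extreme with 1.17 FPKM in liver, 1963 in VAT, 20.4 in kidney, 237 in muscle, 336 in BAT, 2241 in SCAT and 3.50 in cortex.

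Serpins and acute phase proteins gave 17 liver-enriched genes of 22, with a median log2 ratio of 4.55. Antithrombin Serpinc1 had 853 FPKM in liver and at most 4.64 elsewhere. The pentraxins Crp and Apcs had 30.2 and 110.1 FPKM in liver and at most 0.237 and 1.008 elsewhere. Saa1 and Saa2, serum amyloid genes that rise steeply in an acute phase response, were at only 20.5 and 4.48 FPKM in liver. Of the alpha-1-antitrypsin genes, Serpina1a (1717 FPKM) and Serpina1e (1301) had values.

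The major urinary proteins bind and release volatile pheromones and are excreted in urine. Of 21 listed genes, 15 reached 1 FPKM in any tissue and all 15 of these were liver-enriched. Their liver levels ran from 1.09 to 9425 FPKM, led by Mup3, Mup11 and Mup20 and followed by Mup14 (794), Mup7 (735), Mup21 (445), Mup17 (346) and Mup15 (249). Mup20 (darcin) had 3592 FPKM in liver, 19.7 in VAT, 0.654 in kidney, 1.09 in muscle, 0.0956 in BAT, 0.541 in SCAT and 0.311 in cortex. The 6 others were below 1 FPKM in liver. The genes are nearly identical copies, so the order within the family is uncertain. Summed over the 15 genes, the family held 24956 FPKM in liver, 160.2 in VAT and at most 9.17 in the remaining tissues. This sum includes Mup11, Mup17, Mup20 and Mup21, whose loci were assigned to the strand opposite to the annotation.

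Enzymes of amino acid breakdown were liver-enriched in 20 of 36 cases and highest in liver in 33 (median log2 ratio 2.25). When kidney was left out, 32 of the 36 passed. Tdo2, which opens the ring of tryptophan, had 1654 FPKM in liver, 8.66 in VAT, 3.09 in kidney, 2.01 in muscle, 1.83 in BAT, 5.33 in SCAT and 2.87 in cortex. Hpd, of tyrosine breakdown, had 1173 FPKM in liver, 4.71 in VAT, 15.1 in kidney, 0.376 in muscle, 0.463 in BAT, 0.178 in SCAT and 0.330 in cortex. Enzymes of the same pathway thus differed in how far kidney shared them. Hgd and Fah, the later steps of tyrosine breakdown, had 106 and 103 FPKM in kidney against 309 and 220.0 in liver, while the tyrosine aminotransferase Tat had 159 in liver and 0.0218 in kidney. The serine dehydratase Sds (60.2 FPKM, 5.51), the histidine ammonia-lyase Hal (91.0, 6.49) and the glycine methyltransferase Gnmt (423, 6.07) had larger log2 ratios than Tat (5.41).

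The urea cycle showed the same division. Of its 8 genes, 4 were liver-enriched and all 8 were highest in liver. Cps1, the entry enzyme, had 666 FPKM in liver, 5.82 in VAT, 0.0880 in kidney, 0.182 in muscle, 0.0336 in BAT, 0.0934 in SCAT and 0.0920 in cortex. Otc had 278 FPKM in liver and at most 2.77 elsewhere, and Nags, which makes the activator of Cps1, had 13.8 and at most 0.104. Ass1 and Asl, which also serve arginine synthesis in kidney, had 485 and 65.8 FPKM in kidney against 867 and 215 in liver, with log2 ratios of 0.84 and 1.71. The transporters Slc25a15 and Slc25a13 had 105 and 131 FPKM in liver and 39.4 and 36.8 in kidney. Without kidney all 8 passed.

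Cytochrome P450 enzymes of foreign compounds were liver-enriched in 18 of 24 cases (median log2 ratio 5.01). Cyp2c50 had 598 FPKM in liver, 3.98 in VAT, 0.0801 in kidney, 0.474 in muscle, 0 in BAT, 0.0995 in SCAT and 0.0378 in cortex. Cyp1a2, which oxidises caffeine and aromatic amines, had 48.1 FPKM in liver and at most 0.482 elsewhere. Cyp2d9 and Cyp2d26 had 62.8 and 39.6 FPKM in kidney besides 426 and 432 in liver. Cyp2j5 went the other way, with 332 FPKM in kidney and 220.5 in liver. The electron donors Por (66.1 FPKM in liver, log2 ratio 0.94) and Cyb5a (523, 1.47), which serve P450s in many tissues, were highest in liver but did not pass. Members of the Cyp2c and Cyp3a families have close relatives side by side, and how reads were shared among them is uncertain.

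Conjugating enzymes attach polar groups to drugs, bilirubin and steroids. They were listed together with some other enzymes of foreign compounds, namely flavin monooxygenases, an epoxide hydrolase and carboxylesterases, and with the glycine methyltransferase Gnmt. Of 26 measured, 13 were liver-enriched and 20 passed when kidney was left out. Ugt2b36 had 873 FPKM in liver, 7.77 in VAT, 0.115 in kidney, 0.529 in muscle, 0.165 in BAT, 0.0465 in SCAT and 0.168 in cortex. Gstp1, a glutathione transferase, had 944 FPKM in liver, 59.4 in VAT, 73.8 in kidney, 123 in muscle, 65.3 in BAT, 20.4 in SCAT and 51.4 in cortex. Ces1c, a carboxylesterase, had 805 FPKM in liver and at most 6.90 elsewhere. Sult1d1 (67.9 FPKM in liver, 389 in kidney) and the flavin monooxygenase Fmo1 (77.1 and 169.9) were higher in kidney.

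Bile acid genes were divided between steps. Of 24 measured genes, 11 were liver-enriched and 22 highest in liver (median log2 ratio 1.77). Cyp7a1, the rate-limiting enzyme of the classical pathway, had 10.1 FPKM in liver, 0.273 in VAT, 0 in kidney, 0 in muscle, 0 in BAT, 0.00336 in SCAT and 0.00147 in cortex. Slc27a5, which activates bile acids for conjugation, had 236 FPKM in liver and at most 1.57 elsewhere, and Baat, which conjugates them, had 51.2 and at most 0.396. The export pump Abcb11 had 67.4 FPKM in liver, 0.847 in VAT, 0.00459 in kidney, 0.0425 in muscle, 0.0288 in BAT, 0.0146 in SCAT and 0.00232 in cortex. The sterol exporters Abcg5 and Abcg8 had 35.4 and 22.2 FPKM in liver. Several steps shared with general peroxisomal metabolism did not pass. Amacr had 39.3 FPKM in liver and 37.1 in kidney, and Scp2 had 1542 in liver and 557 in BAT. The basolateral exporter Slc51b was lower in liver (0.137 FPKM) than in BAT (27.9) and kidney (13.2).

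Genes of central metabolism were mostly shared with other tissues. Of the 26 measured genes of glucose and glycogen metabolism, 2 were liver-enriched (7.69%, against 3.39% of all genes tested), 9 passed when kidney was left out, and the median log2 ratio of the group was -0.48. Gluconeogenesis was shared with kidney. G6pc, which releases free glucose, had 57.0 FPKM in liver, 0.905 in VAT, 36.7 in kidney, 0.0571 in muscle, 0.00900 in BAT, 0.0273 in SCAT and 0.00847 in cortex. Fbp1 had 471 FPKM in liver, 5.59 in VAT, 392 in kidney, 0.321 in muscle, 0.257 in BAT, 0.0696 in SCAT and 0.104 in cortex. Pck1 was higher in both BAT (1226 FPKM) and kidney (930.0) than in liver (568). The hexokinases Hk1 and Hk2 of other tissues were at 0.543 and 0.186 FPKM in liver, against 18.2 in cortex for Hk1 and 33.9 in muscle for Hk2. Glycogen phosphorylase differed by isoform, with 64.7 FPKM of Pygl in liver but 98.4 in BAT, and 2387 FPKM of Pygm in muscle.

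Fatty acid oxidation was shared with kidney and BAT, and lipid synthesis was mostly highest in BAT. Of 22 genes of oxidation and ketone bodies, 4 were liver-enriched and 12 highest in liver. Without kidney, 10 of the 22 passed. The liver-enriched ones included Fabp1, Cyp4a14 and Acaa1b. Oxct1, which lets tissues burn ketone bodies, had 3.46 FPKM in liver, 71.0 in VAT, 393 in kidney, 185 in muscle, 137 in BAT, 29.98 in SCAT and 96.9 in cortex. This gene was lowest in liver, at least 8-fold below each other tissue (log2 difference to the lowest -3.08). The mitochondrial enzymes Hadha and Acadvl had 1487 and 1031 FPKM in BAT against 341 and 211 in liver. Of 25 genes of lipid and cholesterol synthesis, 5 were liver-enriched (Elovl2, Pemt, Insig2, Fads2 and Elovl5), 9 were highest in liver and 14 were highest in BAT. Fatty acid synthase (Fasn) had 4.21 FPKM in liver, 16.1 in VAT, 5.597 in kidney, 2.25 in muscle, 427 in BAT, 4.07 in SCAT and 7.18 in cortex. Elovl2, which lengthens polyunsaturated fatty acids, had 107 FPKM in liver and at most 1.21 elsewhere, and Pemt, which methylates phosphatidylethanolamine, had 143 and at most 7.38. Scd1 had no value in VAT, SCAT or BAT, so its log2 ratio covers only 3 other tissues.

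**Figure D4:**
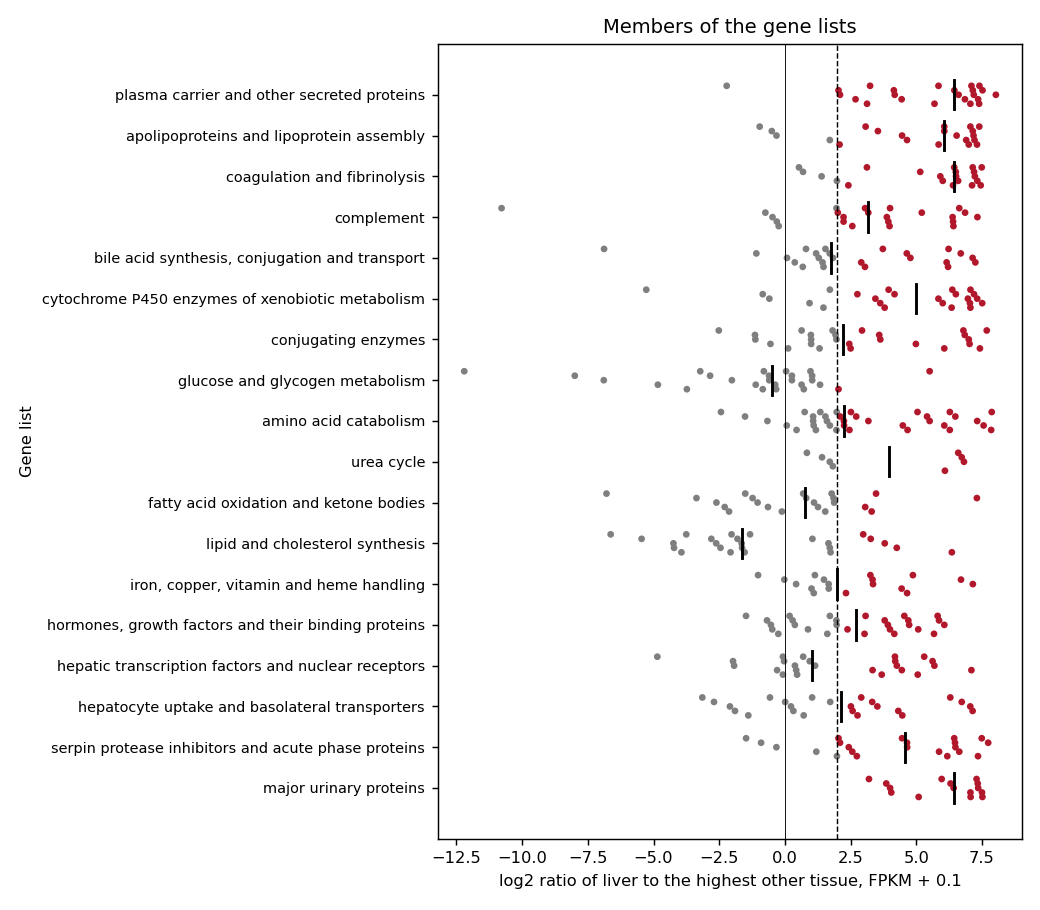
The log2 ratio of liver to the highest other tissue (horizontal axis, FPKM plus 0.1) for the measured members of 18 gene lists; each point is a gene, red where the ratio is at least 2 (dashed line), and black bars are medians. Medians lie above 6 for plasma carriers, apolipoproteins, coagulation factors and major urinary proteins, and below 0 for glucose metabolism and lipid synthesis.

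Hormones and growth factors from liver were enriched in 15 of 28 cases. Igf1, the mediator of growth hormone, had 141 FPKM in liver, 10.04 in VAT, 0.716 in kidney, 3.59 in muscle, 2.13 in BAT, 6.85 in SCAT and 0.212 in cortex. Angiotensinogen (Agt) had 58.3 FPKM in liver, 7.05 in VAT and 6.04 in kidney. Fgf21, a fasting hormone, had 12.3 FPKM in liver and at most 0.722 elsewhere, the hormone carriers Serpina6 (corticosteroid binding globulin) and Serpina7 (thyroxine binding globulin) had 32.2 and 21.02, and the glucagon receptor Gcgr had 87.0 in liver and 4.76 in kidney. Receptors for insulin and growth hormone were widespread, with 23.1 FPKM of Insr in liver and 18.8 in muscle, and 188 FPKM of Ghr in liver and 166 in kidney.

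Of 18 genes for iron, copper, vitamins and heme, 9 were liver-enriched. Hepcidin (Hamp), the hormone that limits iron export, had 337 FPKM in liver, 11.4 in VAT, 0 in kidney, 0 in muscle, 0.121 in BAT, 0.460 in SCAT and 0 in cortex. Tfr2, which senses iron-loaded transferrin, had 106 FPKM in liver and 4.14 in BAT. Ceruloplasmin (Cp) had 402 FPKM in liver and 39.7 in VAT, and Gulo, the last enzyme of vitamin C synthesis, had 94.7 and 0.811. Ferritin chains, which store iron in all cells, did not pass: Fth1 was higher in kidney (857 FPKM) than in liver (422). Of 24 membrane transporters and uptake receptors, 12 were liver-enriched. The asialoglycoprotein receptor chains Asgr1 and Asgr2, which clear desialylated glycoproteins from blood, had 295 and 131 FPKM in liver and at most 2.12 and 1.57 elsewhere. The glycerol channel Aqp9 had 101 FPKM in liver and 4.45 in VAT. The amino acid transporters Slc38a4 and Slc7a2 had muscle as second tissue, with 312 FPKM in liver and 45.9 in muscle for Slc38a4 and 91.5 and 15.3 for Slc7a2. Slc27a2, a fatty acid transporter and acyl-CoA synthetase, was nearly level between kidney (933 FPKM) and liver (941).

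Genes of both ends of the liver lobule were present. Of 15 genes that mark periportal hepatocytes, 10 were liver-enriched, and of 15 that mark pericentral hepatocytes, 9 were. Cyp2f2, a periportal marker, had 203 FPKM in liver, 2.50 in VAT, 0.640 in kidney, 0.524 in muscle, 0.353 in BAT, 3.44 in SCAT and 0.0647 in cortex. Glul, the pericentral glutamine synthetase, had 271 FPKM in liver, 146 in VAT, 73.6 in kidney, 91.3 in muscle, 371 in BAT, 67.1 in SCAT and 251 in cortex, so that BAT and cortex were near or above liver. Lgr5, a receptor of the pericentral rim, had 2.35 FPKM in liver and at most 0.239 elsewhere. Among genes known as higher in livers of one sex, 10 of 19 male-biased (52.6%) and 1 of 13 female-biased genes (7.69%) were liver-enriched. The share over all genes tested was 3.39%, so the female-biased share rests on a single gene near that level. Median liver levels were 71.2 and 1.19 FPKM. The counts of liver-enriched genes were 14 and 4 without kidney, and the female-biased count was 2 without VAT or without muscle. The labels do not give the sex of the animals.

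Cells other than hepatocytes were visible at a lower level. Of 11 Kupffer cell markers, 3 were liver-enriched (Clec4f, Vsig4 and Cd5l), and 5 passed when SCAT was left out. Clec4f, a lectin that is particular to Kupffer cells in mouse, had 43.3 FPKM in liver, 0.226 in VAT, 0 in kidney, 0 in muscle, 0.0476 in BAT, 0 in SCAT and 0 in cortex. The general macrophage genes Adgre1 (F4/80) and Csf1r were as high in adipose tissue, with 9.59 FPKM of Adgre1 in liver and 10.1 in VAT, and 15.1 of Csf1r in liver and 15.3 in SCAT. Of 11 markers of sinusoidal endothelium, 5 were liver-enriched, among them the lectin Clec4g with 31.3 FPKM in liver, 0.287 in VAT, 0.0138 in kidney, 0.0994 in muscle, 0.227 in BAT, 0.590 in SCAT and 0.0396 in cortex. Stab2, a scavenger receptor of these cells, had 20.4 FPKM in liver, 8.81 in muscle and 4.88 in SCAT. Of 11 stellate cell markers, 4 were liver-enriched, including Colec10 (13.9 FPKM in liver, at most 0.109 elsewhere) and Lrat, the enzyme that esterifies retinol for storage (14.3 and 1.26 in kidney). All 4 were read from loci assigned to the strand opposite to the annotation, so their own transcripts and antisense ones cannot be told apart. Of 11 cholangiocyte markers, 1 was liver-enriched (9.09%, against 3.39% of all genes tested), Tm4sf4 (54.4 FPKM). The bile duct keratins Krt19 and Krt7 were at 0.180 and 0.111 FPKM in liver.

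No member of the neuron and glia, muscle, adipocyte, kidney epithelium, pancreatic acinar, blood cell or epididymis and testis lists was liver-enriched. The median liver level was 0.142 FPKM over 10 neuron and glia markers, 0.121 over 10 kidney epithelium markers and 0.663 over 10 adipocyte markers. Apart from blood cell genes, the lipid droplet gene Cidec (15.3 FPKM, against 746 in BAT) and the kidney androgen-regulated protein Kap (9.54, against 23760.3 in kidney) were the highest of them. Globin transcripts of red cells were found in every tissue, with 431 FPKM in liver, 1073 in VAT, 562 in kidney, 396 in muscle, 999 in BAT, 403 in SCAT and 75.2 in cortex for Hbb-bs. The summed level of the 11 measured blood cell markers was 1084 FPKM in liver, between 163 in cortex and 2425 in VAT, and 1 of them, the erythroid heme synthesis enzyme Alas2, was highest in liver (28.6 FPKM, against 10.2 in VAT). Of 14 ubiquitous genes, none was liver-enriched and 4 were highest in liver (median log2 ratio -0.94).

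Liver shared more with kidney than with any other tissue by the following counts. Leaving kidney out raised the number of liver-enriched genes from 506 to 778, whereas leaving out any of the other 5 tissues gave 529 to 550. The rank correlation of liver with each library over the expressed protein-coding genes was highest with kidney (Spearman's rho 0.763), then BAT (0.724), VAT (0.710), SCAT (0.660), muscle (0.626) and cortex (0.429). These values are across 14902 to 14905 genes, which are not independent replicates. In 37 liver-enriched genes a single other tissue stood at least 4-fold above the third and within 16-fold of liver. Kidney was that tissue in 26 of them, BAT and muscle in 4 each, VAT in 2 and SCAT in 1. The kidney group included Cyp4a14 (234 FPKM in kidney), the homocysteine enzymes Ahcy (52.0) and Cbs (15.6), protein C (Proc, 20.6), the immunoglobulin transporter Pigr (28.1) and Apom (27.99).

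Some liver-enriched genes came from loci that lay side by side. With neighbouring locus starts at most 100 kb apart, 31 runs of at least 3 names held 111 of the 506 (21.9%). Bounds of a locus can span far more than its genes, so the genes of a run need not lie within 100 kb of each other. Dlec1 and Acaa1a, named at a shared locus, are annotated from 119102478 and from 119339676 on chromosome 9. Several names can share a locus, and with each locus counted once, 21 runs held 74 of 480 loci (15.4%). The same count gave 32.8% of the loci of VAT-enriched genes, 8.90% for SCAT and between 0.840% and 3.11% for the remaining 4 tissues, whose sets differ in size. Over all protein-coding genes tested, 66.7% of the 14065 loci stood in such runs. On chromosome 16, from 22891986 to 22961657, the run Ahsg, Fetub and Hrg held 3 secreted cystatin-like proteins with 1897, 96.5 and 1436 FPKM in liver. On chromosome 14, from 30885679 to 30943325, it was Itih4, Itih3 and Itih1, heavy chains of inter-alpha-inhibitor, with 589, 329.6 and 178 FPKM. On chromosome 9, at loci with bounds from 45832029 to 46258235, Apoa1, Apoc3 and Apoa4 together held 3644 FPKM. Within these bounds Apoa1 is annotated from 46228580 to 46230466 and Apoa4 from 46240696 to 46243459. The chromosome 12 run from 103853343 to 104044443 held 5 names of the Serpina family, and on chromosome 19 the Cyp2c genes formed runs of 5 (39389556 to 39886769) and 4 (39992424 to 40187333). The chromosome 5 run from 86889214 to 87424245 held 5 Ugt2 genes with a median log2 ratio of 6.79. Of the Mup genes, 9 stood in 3 runs on chromosome 4. Some runs are not families: on chromosome 7, Zfp668, Zfp646, Prss53, Gm21974 and Vkorc1 came from only 2 loci, and their values cannot be separated.

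In the other direction, the 84 genes lower in liver than in each other tissue had a median log2 difference to the lowest tissue of -2.49, and 64 of them were below 1 FPKM in liver. Rgcc, a cell cycle regulator of endothelial cells among others, had 0.0399 FPKM in liver, 57.6 in VAT, 3.78 in kidney, 61.3 in muscle, 114 in BAT, 33.8 in SCAT and 3.97 in cortex, a log2 difference to the lowest of -4.79. Ly6c1, a surface protein of endothelium and monocytes, had 0.129 FPKM in liver, 38.2 in VAT, 23.6 in kidney, 41.1 in muscle, 74.4 in BAT, 21.3 in SCAT and 6.18 in cortex (-4.78). Cd34, carried by endothelium of most organs but little by hepatic sinusoids, had 0.411 FPKM in liver, 14.4 in VAT, 5.92 in kidney, 22.1 in muscle, 9.82 in BAT, 9.01 in SCAT and 8.24 in cortex (-3.56). Car4, a carbonic anhydrase on capillaries, was listed at 0 in liver and had 7.37 in VAT, 6.37 in kidney, 1.16 in muscle, 3.58 in BAT, 2.21 in SCAT and 2.49 in cortex. In Rgcc, Ly6c1 and Cd34 the highest level was in BAT or muscle, and in Car4 it was in VAT. The protein phosphatase inhibitor Ppp1r1a had 0.175 FPKM in liver and at least 6.97 elsewhere, and the myosin Myo5a, a vesicle motor, had 0.454 and at least 7.34. The immune checkpoint ligand Cd200 had 0.619 FPKM in liver, 11.6 in VAT, 7.98 in kidney, 11.4 in muscle, 11.2 in BAT, 13.8 in SCAT and 13.6 in cortex, with little spread among the 6 other tissues. The remainder of the 15 furthest below were Mcf2l (0.0525 FPKM in liver), Tspan6 (0.108), Higd1b (listed at 0), Pstpip1 (0.263), B3gat1 (0.0346), Chst11 (0.102), Chrdl1 (0.0740) and Enah (0.104). With log2(FPKM + 1) in place of log2(FPKM + 0.1), the count was 16 rather than 84. Scaling the libraries to an equal sum of protein-coding FPKM, which lowered the median log2 ratio of all genes by 0.77, gave 174 lower and 353 liver-enriched genes.

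**Figure D5:**
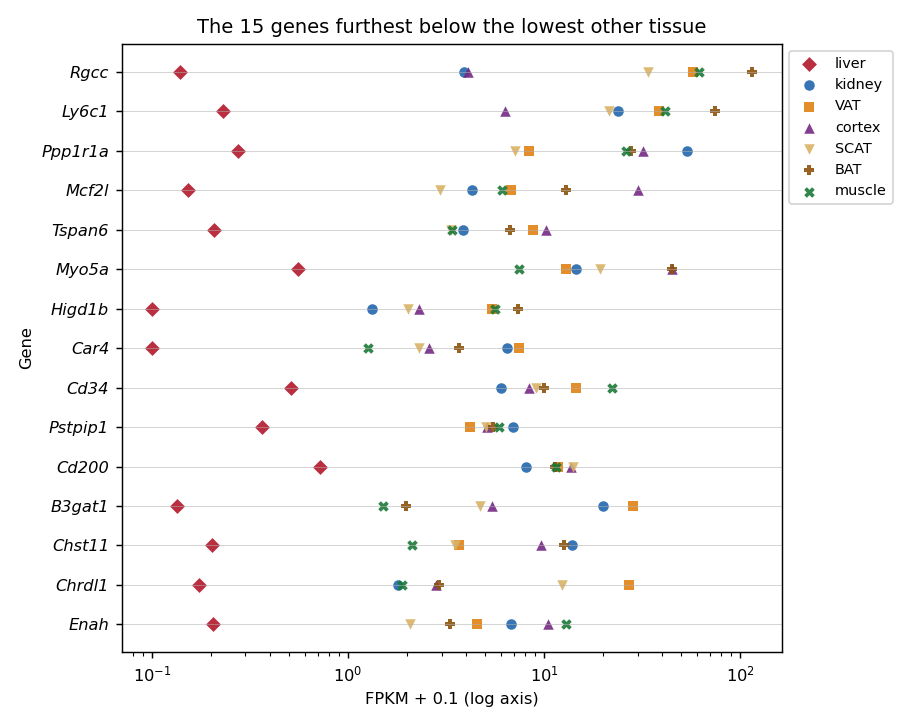
FPKM plus 0.1 (horizontal log axis) in each of the 7 libraries for the 15 genes furthest below the lowest other tissue in liver; each symbol is 1 library. Liver (red diamonds) lies below 1 in each gene and every other tissue lies above 1.

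At the threshold the rule separated genes that hardly differ. Just inside it were Etnppl (30.8 FPKM in liver, 7.63 in kidney, log2 ratio 2.0002), F2rl2 (2.01), Acaa1a and Dlec1 (2.01) and C1rl (2.01). The locus of F2rl2 shared its bounds with the more abundant Iqgap2 on the other strand. Acaa1a and Dlec1 were on a shared locus, whose bounds also held the more abundant Acaa1b on the other strand. C1rl was on a locus shared with C1ra. Just outside it were Naprt (53.5 FPKM in liver, 13.3 in kidney, 1.9979), St3gal4 (1.9963), Bst2 (1.99), Wbp1l (1.98) and Cxcl12 (1.98).

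Names of other biotypes added 108 liver-enriched entries out of 2187 that reached 1 FPKM in any tissue (4.94%). They held 15 of 185 miRNA, 15 of 156 snRNA and 12 of 155 snoRNA genes, 18 of 696 processed and 16 of 61 unprocessed pseudogenes, 9 of 234 processed transcripts and 8 of 246 TEC names. The 5 largest log2 ratios were those of Snord49a (10.63), Rnu73b (10.61), Gm25128 (9.79), Mir122 (7.89) and Gm45724 (7.495). Gm45724, at 159 FPKM in liver, lay opposite the more abundant Ces3a (701). The first 3 are snoRNA genes and were listed at 0 in all 6 other tissues, with 158, 157 and 88.2 FPKM in liver, but the loci that carry these names span far more than a snoRNA. Mir122 encodes the most abundant microRNA of hepatocytes. The locus under its name is longer than the hairpin and does not measure the mature microRNA. It had 73.8 FPKM in liver, 0.213 in VAT, 0.00320 in kidney, 0.0486 in muscle, 0.0154 in BAT, 0.0361 in SCAT and 0.00483 in cortex. This locus was assigned to the strand opposite to the annotation. The table named 7 microRNA genes of the Mir290 cluster at 16.1 FPKM in liver from a single locus. Among the pseudogenes were Mup-ps19 (155 FPKM in liver, 1.16 in VAT) and Cyp2d37-ps (93.7 and 0.644).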

How the data were processed

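Total RNA from 7 mouse tissues, 1 library each, was depleted of ribosomal RNA and sequenced as strand-specific paired-end libraries. Per the paper's methods and the labels, the authors trimmed reads with flexbar, removed ribosomal reads with Bowtie2 2.2.9, aligned the rest to GRCm38 with STAR 2.6.0c, and assembled and quantified transcripts with Cufflinks 2.2.1, Cuffmerge and Cuffdiff, with the Ensembl release 90 annotation. The deposited table gives FPKM for 94339 loci in 21 pairwise comparisons. The columns of the authors' own comparisons (fold changes, test statistics and p-values) were not used. Fragment counts were not given, so the depth and the precision of each value are unknown.

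Each locus name was split on commas, the locus with the highest maximum FPKM was kept for each name, 151 loci with the status FAIL were dropped, and 0 with the status LOWDATA was treated as missing. Biotypes came from GENCODE release M21, which held 91.9% of the names. The strand of each locus was inferred from the order of loci, and 75.3% of pairs of a name and a locus lay on the annotated strand. Scripts (Python 3.11.15, pandas 2.3.3) were tested on simulated data. No test between tissues was possible with 1 library each. Genes named were the 25 with the largest log2 ratios, the 15 with the highest liver FPKM, the 15 furthest below the other tissues, 5 on each side of the threshold, the 5 largest of other biotypes, members of 34 gene lists (578 genes) and of runs on chromosomes; others are marked as chosen after their values were seen, and some genes of these groups and 1 of the motifs searched are not reported here. Members and lists were chosen with earlier results of these data known. Alternatives changed the pseudocount, minimum, fold, scaling, locus choice, treatment of FAIL and LOWDATA loci, and the tissues compared.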

Additional observations from a re-analysis of the deposited data

Results flagged for a closer look

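Loci with the status FAIL, which the comparison above does not use, held 75 protein-coding names with no other locus, and 8 of these names, at 3 loci, had values that would meet the rule for liver-enriched genes. They are given here as signal in loci left out of the comparison. The locus shared by Trf (transferrin, the plasma carrier of iron), Srprb and Gm20425 had 5511 FPKM in liver and 457 in VAT, the next tissue. The locus shared by Serpina3k and Serpina3m, protease inhibitors of plasma, had 2250.0 FPKM in liver and 13.02 in VAT. The locus shared by C2 and Cfb, proteases of complement activation, and Gm20547 had 591 FPKM in liver and 144 in kidney. The status FAIL marks loci for which the calculation of the authors' program failed, so these values are less certain than the others.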

How the results depend on the processing

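No paired analysis was possible because each tissue had 1 library and no replicate number. The count of liver-enriched genes (506) was 936 at 2-fold, 244 at 16-fold, 778 without kidney and 294 with unambiguous loci only, the last chosen after seeing the data. Under the other alternatives run it lay between 353 (equal sum of protein-coding FPKM in every library) and 550 (without cortex or without BAT). The count of genes lower in liver (84) was 16 with a pseudocount of 1, 25 with a minimum of 5 FPKM, 294 at 2-fold, 174 with an equal protein-coding sum, 132 without kidney and 137 without cortex. The share of the liver sum (44.1%) was 52.3% at 2-fold, 44.6% with loci summed, 45.9% with single-name loci only and 40.5% with unambiguous loci only. The 235 liver-enriched list members became 155 at 16-fold. The cause of these shifts was not tested beyond the change of threshold, tissues or loci itself. With all loci of a name summed, 497 of the 506 genes remained among 506. For single genes of the lists and rules, 3 alternatives were computed, and of 241 called genes, 22 fell below the threshold with a pseudocount of 1, 5 with median-of-ratios scaling and 1 with loci summed. With 1 library per tissue and no fragment counts, differences between animals and counting error cannot be separated from differences between tissues.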

Other observations

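Of the 506 liver-enriched genes, 271 were in none of the 34 lists, and the genes in this paragraph and the next were chosen after their values were seen. Alcohol and aldehyde oxidation was represented by the dehydrogenases Adh1, Adh4, Aldh2 and Aldh1a1. Adh1 had 837 FPKM in liver, 45.8 in VAT, 180.0 in kidney, 13.4 in muscle, 94.2 in BAT, 18.2 in SCAT and 0.282 in cortex. Adh4 was more restricted, with 102 FPKM in liver, 1.503 in VAT, 0.183 in kidney, 0.0918 in muscle, 0.831 in BAT, 0.0465 in SCAT and 0.0176 in cortex. Aldh2, the mitochondrial enzyme that clears acetaldehyde, had 823 FPKM in liver, 201 in kidney and 171 in BAT, just past the threshold (log2 ratio 2.04). Breakdown of purines and pyrimidines was also present. Uox, which oxidises uric acid, had 614 FPKM in liver, 7.21 in VAT, 0.103 in kidney, 0.360 in muscle, 0 in BAT, 0.0367 in SCAT and 0.268 in cortex, and Urah, which acts on its product, had 187 FPKM in liver and 2.16 in kidney. Dpyd and Dpys, which open the pyrimidine ring, had 159.6 and 84.9 FPKM in liver against 20.2 and 4.95 in kidney. Pon1, the paraoxonase carried on high-density lipoprotein, had 584 FPKM in liver, 4.87 in BAT and 4.46 in VAT.

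Some genes of the cell cycle, a group for which no list was counted, were liver-enriched in these adult tissues. E2f8, a repressor of the E2F family, had 26.9 FPKM in liver, 0.151 in VAT, 0.0305 in kidney, 0.277 in muscle, 0.0549 in BAT, 0.131 in SCAT and 0.0276 in cortex (log2 ratio 6.17). Mcm10, which acts in the start of DNA replication, had 25.3 FPKM in liver, 0.291 in VAT, 0.753 in kidney, 0.0207 in muscle, 0.251 in BAT, 0.200 in SCAT and 0.0435 in cortex (4.90). The mitotic kinases Aurka and Mastl had 22.7 and 17.7 FPKM in liver, against 3.42 in BAT and 4.10 in kidney. Among the genes lower in liver, the pyruvate kinase Pkm had 5.51 FPKM in liver, 42.7 in VAT, 38.8 in kidney, 1308 in muscle, 566 in BAT, 30.6 in SCAT and 209 in cortex, -2.45 on the log2 scale from the lowest other tissue, while Pklr, the isoform known from liver, had 22.9 FPKM in liver and 13.9 in kidney.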
